A study of Mus musculus with 5 samples.

Results

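The contacts described here are pairs of gene promoters that were called in pre-granulosa cells and scored low in Sertoli cells. A promoter capture Hi-C table pairs a bait, a bin of nominally 5 kb that carries one or more gene promoters, with a second bin, and gives both cell types a CHiCAGO score, which rises as read pairs exceed what distance alone would give. Pairs were taken where both bins carried promoters on the same chromosome (chromosomes 1 to 9), the pre-granulosa score was at least 5, the usual threshold for a call, and the Sertoli score lay above 0 and under 2. Counting each pair of bins once, 1091 of the 18297 listed promoter-to-promoter pairs met these limits from at least 1 end. That is 5.96% of the pairs, while the same limits with the cell types exchanged gave 2596 Sertoli-only pairs, or 14.2%. With the Sertoli threshold raised so that both cell types had equal numbers of calls, 1510 Sertoli-only pairs were left. The members were selected on both scores, which are therefore given as a description without a test. Over the whole table, each pair counted once, 42157 contacts were listed.

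Capture Hi-C was done on supporting cells of the fetal mouse gonad at E13.5, the stage of embryonic development. The pre-granulosa group holds 2 libraries of supporting cells sorted by mCherry from Enh8-mCherry embryos, and the Sertoli group holds 3 libraries of cells sorted by GFP from Sox9IRES-GFP embryos, each library from about 100000 cells. The groups thus differ in cell type and in the reporter allele used for the sort, which cannot be told apart here. Each cell type has 1 score column for all of its libraries, so no value below has a replicate error, and every difference compares a pool of 3 libraries with a pool of 2. Depth per library is not known. Over these promoter pairs 61.8% were called in pre-granulosa cells, 81.4% in Sertoli cells and 43% in both from the same end, so that Sertoli calls were the more numerous. Percentages carry 95% Wilson intervals and medians carry 95% order-statistic intervals, which cover counting error only, since neighbouring bins share read pairs. Of the 7 pre-granulosa markers checked, Rspo1 and Lef1 had a promoter bin in a listed pair, and of 6 Sertoli markers Ptgds and Cst9 had one. Contact scores give no expression level, so the identity of the sorted cells could not be checked with them.

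Pre-granulosa cells are the supporting cells of the ovary and Sertoli cells those of the testis. Both arise from a common bipotential precursor, in which SOX9 drives the Sertoli fate and WNT/β-catenin signalling with FOXL2 the pre-granulosa fate. Promoters of neighbouring genes often meet in the nucleus, both in active hubs where transcribed genes share factors and in silent compartments where repressed gene clusters fold together. Olfactory receptor genes, a very large gene family of the mouse, lie in such clusters and are mostly silent outside the olfactory epithelium.

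The promoters below belong to the first 4 pairs, ranked by mean pre-granulosa score among pairs that met the limits from both ends, whose bins each hold 1 gene with a RefSeq promoter. They are shown because these contacts met the limits in both directions. They also sample the kinds of pairs found: housekeeping genes, an interferon-inducible family, olfactory receptors and a metabolic gene. Both directions read the same pair of bins in the same libraries, so the second is not a replicate. Each window runs from 250 bases before to 50 bases after the annotated start, 5′ to 3′ on the gene's own strand, in RefSeq annotation of GRCm38.p6. Capitals mark a match to the GATA-factor motif AGATAA, and lower case is the rest. The Slc25a25 window lies at chr2:32431102-32431401 (minus strand) and the Dpm2 window at chr2:32570608-32570907 (plus strand). The Ifi207 window lies at chr1:173741760-173742059 (minus strand) and the Ifi211 window at chr1:173912997-173913296 (minus strand). The Olfr889 window lies at chr9:38115548-38115847 (plus strand) and the Olfr25 window at chr9:38329242-38329541 (plus strand). The Hk2 window lies at chr6:82774405-82774704 (minus strand) and the Sema4f window at chr6:82939720-82940019 (minus strand).
Slc25a25: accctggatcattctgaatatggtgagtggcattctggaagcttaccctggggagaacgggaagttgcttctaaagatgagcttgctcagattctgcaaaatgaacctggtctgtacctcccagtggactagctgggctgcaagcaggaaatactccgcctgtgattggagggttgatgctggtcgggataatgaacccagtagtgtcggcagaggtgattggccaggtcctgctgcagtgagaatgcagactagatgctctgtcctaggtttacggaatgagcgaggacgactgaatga
Dpm2: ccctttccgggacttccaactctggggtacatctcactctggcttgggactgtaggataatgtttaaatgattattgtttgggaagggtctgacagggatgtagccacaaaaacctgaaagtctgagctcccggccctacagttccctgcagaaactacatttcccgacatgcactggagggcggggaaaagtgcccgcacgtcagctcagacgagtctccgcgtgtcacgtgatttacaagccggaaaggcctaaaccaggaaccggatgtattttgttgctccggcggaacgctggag
Ifi207: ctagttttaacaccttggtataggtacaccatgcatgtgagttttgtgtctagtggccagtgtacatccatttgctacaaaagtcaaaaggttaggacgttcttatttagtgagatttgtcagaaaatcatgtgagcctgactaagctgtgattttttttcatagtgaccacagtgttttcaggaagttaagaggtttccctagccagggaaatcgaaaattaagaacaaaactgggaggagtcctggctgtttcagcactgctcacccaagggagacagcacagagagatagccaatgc
Ifi211: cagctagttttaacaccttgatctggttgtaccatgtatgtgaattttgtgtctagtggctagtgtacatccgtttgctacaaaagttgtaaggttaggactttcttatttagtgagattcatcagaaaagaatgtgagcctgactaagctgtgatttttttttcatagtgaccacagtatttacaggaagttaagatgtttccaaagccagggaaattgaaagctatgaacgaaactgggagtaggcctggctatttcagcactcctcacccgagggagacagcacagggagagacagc
Olfr889: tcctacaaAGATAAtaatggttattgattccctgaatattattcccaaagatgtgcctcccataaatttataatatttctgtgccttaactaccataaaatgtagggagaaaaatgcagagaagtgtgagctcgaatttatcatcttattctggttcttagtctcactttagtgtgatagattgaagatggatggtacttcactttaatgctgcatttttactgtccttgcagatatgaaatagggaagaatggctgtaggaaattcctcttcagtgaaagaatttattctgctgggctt
Olfr25: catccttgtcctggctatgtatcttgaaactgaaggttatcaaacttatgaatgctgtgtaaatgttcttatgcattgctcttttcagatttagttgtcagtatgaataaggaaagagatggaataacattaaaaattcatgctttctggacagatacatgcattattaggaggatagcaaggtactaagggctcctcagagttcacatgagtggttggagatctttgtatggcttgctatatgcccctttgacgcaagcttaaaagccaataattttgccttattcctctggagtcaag
Hk2: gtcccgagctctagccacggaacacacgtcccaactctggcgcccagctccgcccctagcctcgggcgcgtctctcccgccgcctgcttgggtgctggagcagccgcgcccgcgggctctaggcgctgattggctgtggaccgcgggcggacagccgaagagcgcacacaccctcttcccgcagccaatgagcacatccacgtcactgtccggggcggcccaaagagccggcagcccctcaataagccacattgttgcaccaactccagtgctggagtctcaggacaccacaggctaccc
Sema4f: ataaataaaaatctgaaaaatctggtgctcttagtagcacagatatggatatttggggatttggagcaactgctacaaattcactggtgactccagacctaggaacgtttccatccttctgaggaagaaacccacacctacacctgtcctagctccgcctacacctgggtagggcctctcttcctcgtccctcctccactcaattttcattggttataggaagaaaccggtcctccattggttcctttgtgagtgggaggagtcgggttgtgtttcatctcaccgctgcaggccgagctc
The paired promoters of Ifi207 and Ifi211 were alike, with 261 identical positions of 304 aligned columns, an identity of 85.9%. The ends of the other pairs were not, with 52.6% for Slc25a25 and Dpm2, 51.3% for Olfr889 and Olfr25 and 45.5% for Hk2 and Sema4f. Base composition ran from 35% GC in the Olfr889 window to 67.3% in the Hk2 window. Only the Olfr889 window held one of the 5 motifs searched, which are listed further on.

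These 4 pairs met the limits from both ends. Slc25a25, a mitochondrial carrier of adenine nucleotides, and Dpm2, a subunit of the dolichol-phosphate mannose synthase, lie 138 kb apart on chromosome 2. Read from Slc25a25 the pre-granulosa score was 8.02 and the Sertoli score 0.929, and read from Dpm2 they were 13.0 and 1.94. From Slc25a25, a bin touching the Dpm2 bin was called in Sertoli cells with 5.69 and listed at 0 in pre-granulosa cells. Ifi207 and Ifi211, members of the interferon-inducible family that senses DNA, lie 167 kb apart on chromosome 1. They scored 9.44 in pre-granulosa cells against 1.01 in Sertoli cells from Ifi207 and 10.2 against 1.22 from Ifi211, and the other gene was the only contact listed for either bait. Their promoters are similar in sequence, and how reads shared by such copies were assigned is not given in the sources used here. The Olfr889 and Olfr25 bins, 216 kb apart on chromosome 9, scored 11.7 against 1.53 and 7.45 against 0.0961. Hk2, which encodes a hexokinase, and Sema4f, a transmembrane semaphorin, 161 kb apart on chromosome 6, scored 8.86 against 0.583 and 10.2 against 0.583.

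Over the 1297 directions that met the limits, the pre-granulosa score ran from 5.0003 to 16.2 with a median of 6.03, and 638 of them (49.2%) were under 6. A score of 10 or more was reached in 40 directions (3.08%), against 251 (7.95%) of the Sertoli-only directions on the Sertoli scale. The Sertoli score of these directions ran from 0.00334 to 2.00 with a median of 1.34, and 411 of them (31.7%) had a Sertoli score under 1. Just inside the pre-granulosa limit lay Colgalt1 with Fam129c at 5.0003, Spsb1 with H6pd at 5.0009 and Olfr60 with Olfr61 at 5.0034. The table lists no row in which both cell types score under 5, so nothing just outside that limit can be shown. Just inside the Sertoli limit lay Apbb1 with Trim3 at 1.998, Idh3b with Tmc2 at 1.998 and Dusp11 with Tprkb at 1.9997. Just outside it lay Olfr549 with Olfr550 at 2.0003. A further 307 directions called in pre-granulosa cells had a Sertoli score listed at exactly 0 and were left out, because a listed 0 may stand for a missing estimate; in the opposite direction there were 610.

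Fewer than 1 in 5 members met the limits from both ends. Of the 1091 pairs, 566 (51.9%, 48.9 to 54.8) were listed from both ends, and 206 (18.9%, 16.7 to 21.3) met the limits from both. Of the 2596 Sertoli-only pairs, 1063 (40.9%) were listed from both ends and 561 (21.6%) met the limits from both. Among pairs listed from both ends, the limits were thus met from both by 206 of 566 members and by 561 of 1063 Sertoli-only pairs. A further 360 pairs were listed from both ends and met the limits from 1. In their opposite direction the Sertoli score lay from 2 to under 5 in 284 pairs, at 5 or more in 50 and at 0 in 26. A direction is listed only with a score of 5 or more in a cell type, so those with a Sertoli score under 5 are pre-granulosa calls by construction. Thus 4.58% of all members were called in Sertoli cells when read from the other promoter, against 17 pairs (0.655%) of the Sertoli-only set that were called in pre-granulosa cells. Of the 525 pairs listed from a single end, 474 (90.3%) had a partner bin that is a bait elsewhere in the table, so that neither cell type was called from that partner.

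**Figure D1:**
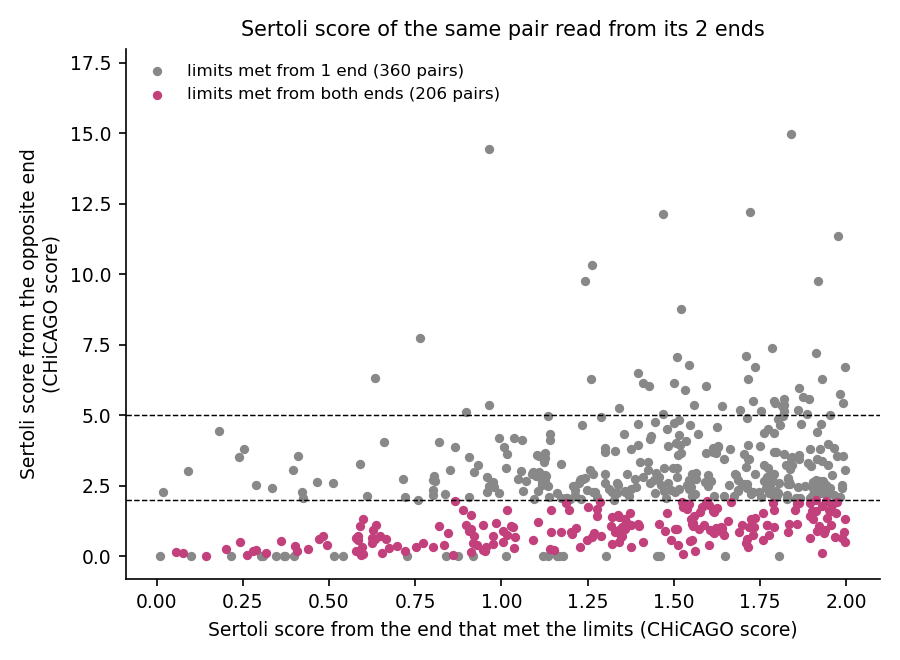
Sertoli CHiCAGO score of each pair listed from both ends, read from the end that met the limits (horizontal axis, the end with the higher pre-granulosa score where both did) and from the opposite end (vertical axis), with dashed lines at 2 and 5. The 206 pairs that met the limits from both ends lie below 2, and of the 360 others 284 lie from 2 to under 5, with 50 at or above 5 and 26 at 0.

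The 4 pairs with the highest Sertoli score from the opposite end lay 10.2 to 15.5 kb apart. Chd9, a chromodomain helicase, and Gm19935, 10.2 kb away on chromosome 8, scored 5.90 in pre-granulosa and 1.84 in Sertoli cells from Chd9 but 17.2 and 14.98 from Gm19935. Olfr978 and the bin of Olfr979 and Olfr980 scored 5.61 and 0.963 from one end and 20.9 and 14.4 from the other. Rpl7, a ribosomal protein gene, gave 22.8 and 12.2 with 4930444P10Rik, which returned 6.42 and 1.72. Between 2 promoters of Arpp19, a regulator of mitotic phosphatase activity, the scores were 5.31 and 1.47 from one end and 14.5 and 12.1 from the other. By the opposite direction, then, each of these 4 pairs was called in both cell types.

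Among the 10 pairs with the highest pre-granulosa score in a direction that met the limits, 7 were not olfactory receptor pairs and spanned from 42.3 to 684 kb. The first was Map9, a gene for a spindle microtubule protein, with Rbm46, a gene for a germ cell RNA-binding protein needed for meiosis, 508 kb apart on chromosome 3. It scored 16.2 in pre-granulosa and 0.398 in Sertoli cells from Map9, and 7.99 with Sertoli listed at 0 from Rbm46. Pcgf1, a Polycomb RING finger subunit, and Wbp1, 42.3 kb away on chromosome 6, scored 12.5 against 1.90 and 14.2 against 1.59, so both directions were above 12 in pre-granulosa cells and under 2 in Sertoli cells. Lysmd4 and the shared bin of Lrrc28 and Ttc23, 424 kb apart on chromosome 7, scored 13.8 against 1.13 from Lysmd4 and 9.25 against 0 from the other end.

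Pard6a, a cell polarity gene, and Thap11, a zinc finger transcription factor, lie 155 kb apart on chromosome 8. Their pre-granulosa scores of 13.4 and 16.6 stood against Sertoli scores of 1.36 and 2.91, so the second direction was over the Sertoli limit. Ergic2, a gene of the transport between endoplasmic reticulum and Golgi, and Caprin2, an RNA-binding protein gene linked to WNT signalling, were the pair farthest apart at 684 kb, with 13.1 against 1.12 and 5.28 against 0. Stk25, a kinase gene, and Atg4b, an autophagy protease gene, 119 kb apart on chromosome 1, scored 12.6 against 1.70 and 15.5 against 2.52. The 3 olfactory receptor pairs among these 10 spanned 16.2 to 64.2 kb: Olfr365 with Olfr366 (12.7 against 1.31, and 11.98 against 2.38), Olfr1193 with Olfr1195 (7.30 against 1.11, and 12.5 against 1.77) and Olfr61 with Olfr45 (6.48 against 0.755, and 12.2 against 1.73). In all 10 pairs both directions were called in pre-granulosa cells, and no Sertoli score passed 3.

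**Figure D2:**
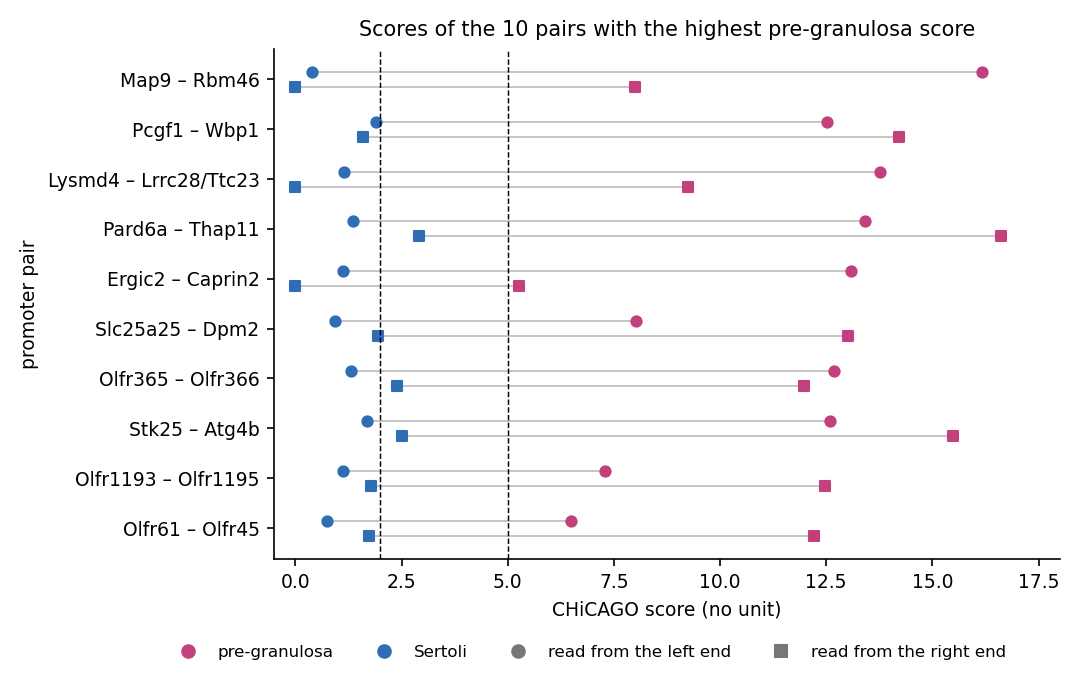
CHiCAGO scores (horizontal axis, no unit) of the 10 pairs with the highest pre-granulosa score, one pair per line, with circles for the direction read from the left promoter and squares for that from the right, and dashed lines at 2 and 5. Pre-granulosa scores lie between 5.28 and 16.6 and Sertoli scores between 0 and 2.91.

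Next in mean score among pairs that met the limits from both ends came Celsr2, a planar polarity cadherin gene, with 1700013F07Rik, 138 kb apart on chromosome 3 (12.1 against 1.91, and 9.07 against 1.98). The shared bin of Adam9, a metalloprotease gene, and Tm2d2 met Plekha2 82.2 kb away on chromosome 8 (9.41 against 1.12, and 11.0 against 1.96). The Cdc25a promoter, of a phosphatase that drives cell cycle entry, and the bin of Dhx30 and Smarcc1, a subunit of the BAF chromatin remodeller, 238 kb away on chromosome 9, scored 16.0 with Sertoli listed at 0 from Cdc25a, a direction that the limits leave out, and 7.58 against 1.17 from the other end.

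Low Sertoli scores at a pair of bins did not mean that Sertoli cells had no call close by. Within 6 kb of both ends, about 1 bin to either side, another contact was called in Sertoli cells for 252 of the 1091 pairs (23.1%, 20.7 to 25.7), and in pre-granulosa cells for 235 (21.5%, 19.2 to 24.1). Within 24 kb the shares were 61.3% and 58.8%. For the Sertoli-only pairs within 6 kb, they were 37.6% for a Sertoli call and 22.9% for a pre-granulosa call, so that for those pairs the cell type that carried the contact also had more calls around it. For pairs called in both cell types the 6 kb shares were 64.8% and 55.1%. A neighbouring contact of the opposite kind was called in Sertoli cells with a pre-granulosa score under 2. It stood within 6 kb of 73 members (6.69%) and within 24 kb of 311 (28.5%). The mirrored case around Sertoli-only pairs gave 3.47% and 16.1%. Among all listed promoter pairs, Sertoli-only ones were also the more common, at 14.2% against 5.96% pre-granulosa-only.

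In 26 member directions a bin touching the member's other end was called in Sertoli cells with a pre-granulosa score under 2. From Stk25, the Atg4b bin 119 kb away scored 12.6 in pre-granulosa and 1.70 in Sertoli cells. The bin touching it, 114 kb away with other start sites of Atg4b and with Thap4, scored 0.0657 in pre-granulosa and 11.4 in Sertoli cells. From Pitpnm2, the Arl6ip4 bin scored 8.80 against 0.0815, and the touching Ogfod2 bin 0.356 against 7.24 for Sertoli cells. From Parp6, a bin with the Pkm-209 start scored 5.50 against 1.23, and the touching bin with other starts of Pkm, the gene of pyruvate kinase, scored 0.840 in pre-granulosa and 7.46 in Sertoli cells. From Nlrx1, the bin of H2afx, the histone variant phosphorylated at DNA breaks, scored 8.80 against 0.768, and the touching Dpagt1 bin 0.323 in pre-granulosa and 5.08 in Sertoli cells. From Pcgf1, the touching bin in the pair with Wbp1 was that of Ino80b, with 1.71 in pre-granulosa and 5.55 in Sertoli cells. In these cases the cell type with the higher score changed from one bin to the next.

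Some of the leading promoters had Sertoli calls at other places, while others, such as those of Ergic2, Olfr1193 and Ifi207, had 0 Sertoli calls as baits. The Pcgf1 bin had 11 pre-granulosa and 12 Sertoli calls, the strongest in Sertoli cells at 33.8 with the bin of Htra2, Aup1 and Dqx1. Plekha2 met Adam5 277 kb away with 13.4 in Sertoli cells and a listed 0 in pre-granulosa cells, and Pard6a met Edc4 182 kb away with 6.75 in Sertoli and 0.223 in pre-granulosa cells. Of the 1191 baits behind the directions that met the limits, 922 (77.4%) had a Sertoli call on some other contact, and 911 (76.5%) had a further pre-granulosa call. Of the baits behind the Sertoli-only directions, 77.8% had a pre-granulosa call on some other contact, and 90.1% of all listed baits with promoter pairs had 1 or more Sertoli calls. All baits of member bins together had 6801 Sertoli and 6878 pre-granulosa calls, a ratio of 0.989. Over all listed baits with promoter pairs the ratio was 1.41, and for those of Sertoli-only pairs it was 1.76. The members' own calls enter the first ratio, so it is partly set by the way the pairs were chosen. Of the 1927 promoter bins in member pairs, 571 (29.6%) were also in a Sertoli-only pair, against 34.9% of all promoter bins in listed pairs.

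By median, pre-granulosa-only pairs spanned longer distances than pairs called in both cell types and shorter ones than Sertoli-only pairs. The median distance was 76.7 kb (70.5 to 82.3) for the members, 33.5 kb (32.7 to 36.6) for pairs called in both and 90.6 kb (86.8 to 93.7) for Sertoli-only pairs, against 53.7 kb (53.2 to 54.3) for all listed pairs. Of the members, 8.34% lay under 20 kb and 10.7% (117 pairs) at 200 kb or more. At percentile 95 the members reached farther than Sertoli-only pairs, with 273 against 261 kb. A median of 2 other promoter bins lay between the ends, against 3 for Sertoli-only pairs and 1 for pairs called in both. The members' distances came from 2 kinds of genes, with medians of 50.1 kb (45.1 to 60.9) for the olfactory receptor pairs and 83.9 kb (77.0 to 88.1) for pairs without one. Sertoli-only pairs without an olfactory receptor had a median of 91.0 kb (87.0 to 93.8), an interval that overlaps that of the members. Beyond Ergic2 with Caprin2, the farthest members were Sprn with Urah at 679 kb (6.58 against 1.21, from Urah) and Olfr523 with Zfp941 at 647 kb (5.03 against 0.611, and 5.79 against 2.14), both on chromosome 7. Both span most of the same olfactory receptor cluster, which Sertoli cells also spanned by Sprn with Scgb1c1 at 689.6 kb (7.25 in Sertoli cells, pre-granulosa listed at 0). The other pairs at this end were Map9 with Rbm46 and Eed, a Polycomb gene, with the bin of Tmem126b and Dlg2 at 499 kb (9.86 against 1.80).

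**Figure D3:**
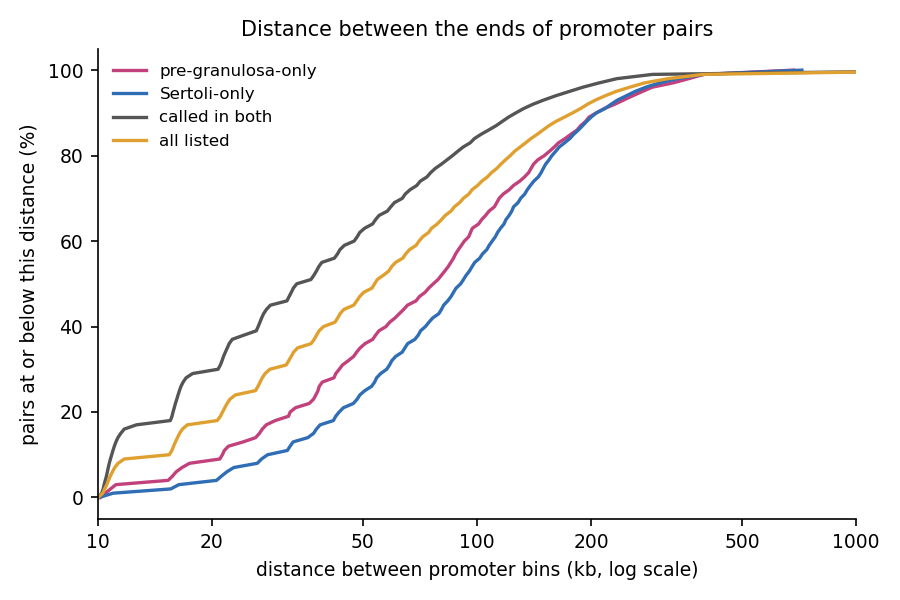
Cumulative share of pairs (vertical axis, percent) at or below a given distance between bins (horizontal axis, kb on a log scale). The pre-granulosa-only curve (median 76.7 kb) mostly runs between those of pairs called in both (33.5 kb) and Sertoli-only pairs (90.6 kb). From percentile 92 to 98 it lies to the right of the Sertoli-only curve. The steps below 50 kb are those of the bin size.

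Olfactory receptor genes made up the largest single group. Both ends carried an olfactory receptor promoter in 232 of the 1091 members (21.3%, 18.9 to 23.8), against 134 of the 2596 Sertoli-only pairs (5.16%), 8.58% of pairs called in both and 1747 of all 18297 listed pairs (9.55%). Read the other way, 13.3% (11.8 to 14.95) of the listed olfactory receptor pairs were pre-granulosa-only and 7.67% (6.51 to 9.01) were Sertoli-only. Among the 16348 pairs without an olfactory receptor the order was the opposite, with 5.14% (841 pairs) pre-granulosa-only and 14.9% (2429 pairs) Sertoli-only. By gene, 340 of the 666 olfactory receptor genes with a promoter bin (51.1%) were in a member pair, beside 23.3% of all 7958 genes, and 203 (30.5%) were in a Sertoli-only pair, beside 41.1% of all genes. The scores say nothing about the expression of these genes, and how reads that fit several similar copies were assigned is not known here.

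Among olfactory receptor pairs the pre-granulosa-only share was the higher at distances up to 200 kb, with intervals that were apart only under 50 kb. Under 20 kb, 5.38% of olfactory receptor pairs were pre-granulosa-only and 1.29% Sertoli-only, beside 2.32% and 3.52% of the pairs without one. Between 20 and 50 kb, the olfactory shares were 14.5% and 5.26%, beside 4.23% and 10.3%. From 50 to 100 kb they were 18.8% and 13.1%, beside 5.77% and 17.7%. From 100 to 200 kb they were 19.2% and 14.5%, beside 7.03% and 25.1%. At 200 kb and beyond, where 127 olfactory pairs were listed, the order within them turned, with 12.6% pre-granulosa-only and 18.1% Sertoli-only, and the intervals overlapped (7.91 to 19.5 and 12.4 to 25.7). Without olfactory receptor pairs, the share of members ran only from 4.50% on chromosome 3 to 6.25% on chromosomes 1 and 6.

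Contacts that the limits did not read leaned the same way. From baits with olfactory receptor promoters to bins without a promoter, 349 contacts were listed from 222 baits, with 259 pre-granulosa and 177 Sertoli calls, which is 0.683 Sertoli calls for each pre-granulosa call. By the same score limits 16.3% of them were pre-granulosa-only and 8.88% Sertoli-only. Baits outside the 3 chemosensory families had 22410 such contacts, with 10707 pre-granulosa and 17616 Sertoli calls, a ratio of 1.65, and 5.69% and 19.2% by the limits. The baits and libraries are the same as those of the promoter pairs, so this is a second readout of the same pools and not a replicate.

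**Figure D4:**
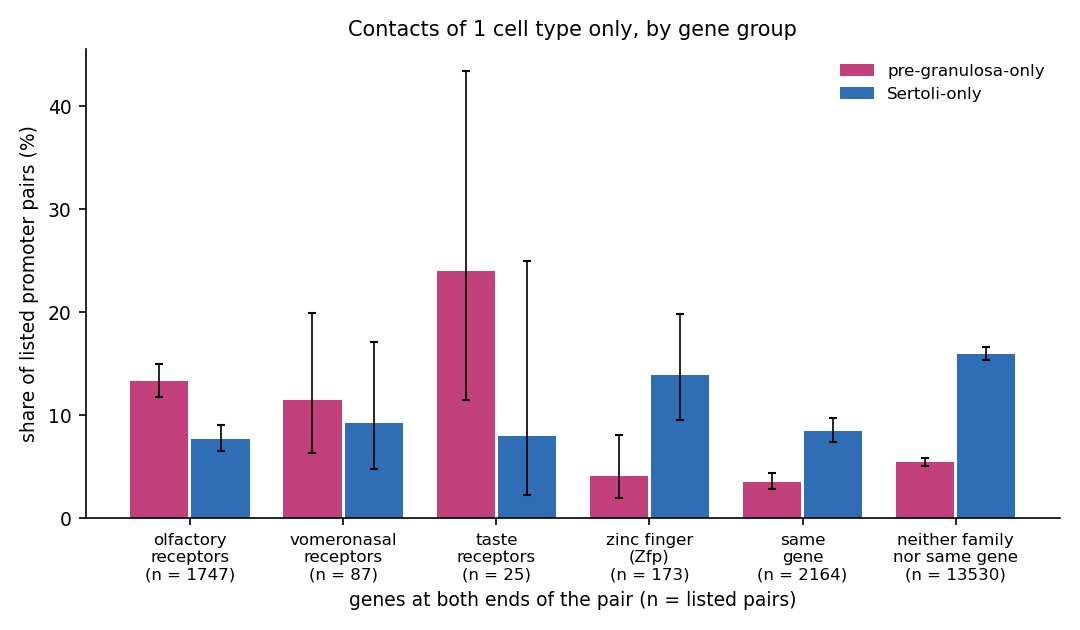
Share of listed promoter pairs (vertical axis, percent) that were pre-granulosa-only or Sertoli-only, by the genes at both ends, with 95% Wilson intervals for counting error and the number of listed pairs under each group. Pre-granulosa-only is the higher bar for olfactory receptors (13.3% against 7.67%) and the lower one for zinc finger genes, for pairs within 1 gene and for the remaining pairs (5.42% against 16.0%), while the intervals overlap for vomeronasal and taste receptors.

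Other chemosensory receptors were few. Of 87 listed pairs with a vomeronasal (pheromone) receptor at both ends, 10 (11.5%, 6.36 to 19.9) were pre-granulosa-only and 8 Sertoli-only. They included Vmn1r173 with Vmn1r174 at 53.9 kb (8.94 against 2.23, and 9.22 against 1.93) and Vmn1r25 with Vmn1r26 at 32.3 kb (6.36 against 1.14, and 8.97 against 1.86). Of 25 pairs of bitter taste receptors 6 (24.0%, 11.5 to 43.4) were pre-granulosa-only and 2 Sertoli-only, with Tas2r123 and Tas2r103 the highest at 189 kb (7.03 with Sertoli listed at 0, and 8.10 against 0.539). From baits of these families to bins without a promoter, Sertoli calls over pre-granulosa calls came to 0.831 for vomeronasal and 1.17 for taste receptors, on 91 and 28 contacts. Intervals of the shares overlapped for both families.

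The olfactory receptor pairs were unevenly spread over their clusters. In the cluster of chr2:85326922-90403539 (mm10), 84 of 410 listed pairs (20.5%, 16.9 to 24.7) were pre-granulosa-only and 26 Sertoli-only. The cluster of chr9:37708699-40189827 held 42 of 234 (17.9%) and 16. On chromosome 7, chr7:102476206-105373210 held 38 of 419 against 32 Sertoli-only pairs and chr7:106676873-108898871 held 19 of 161 against 8. The cluster of chr7:140161538-140707249 leaned the other way with 11 of 94 against 18, and so did that of chr4:118656318-118939177, with 2 of 37 against 14 (37.8%). Of the 13 clusters with at least 20 listed pairs, 7 held more pre-granulosa-only than Sertoli-only pairs, 3 held equal numbers and 3 held fewer.

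Some of these promoters were joined into chains. The members formed 839 connected groups, of which 692 were a single pair and 44 had 4 or more bins. The largest had 15 bins and 14 pairs over 617 kb at chr9:38105814-38722531, and ran from Olfr888 to Vwa5a, the one gene in it outside the family. In that interval 15 pairs were pre-granulosa-only, 3 Sertoli-only, 28 called in both and 22 in none of these classes; it was chosen as the largest group of members. The next 4 groups were also of olfactory receptors, with 10 bins on chromosome 2 (Olfr1260 to Olfr1272, 317 kb), 9 on chromosome 9 (Olfr957 to Olfr970, 309 kb) and 8 each in a pair of chromosome 2 groups (Olfr1014 to Olfr1032 and Olfr1151 to Olfr1163).

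**Figure D5:**
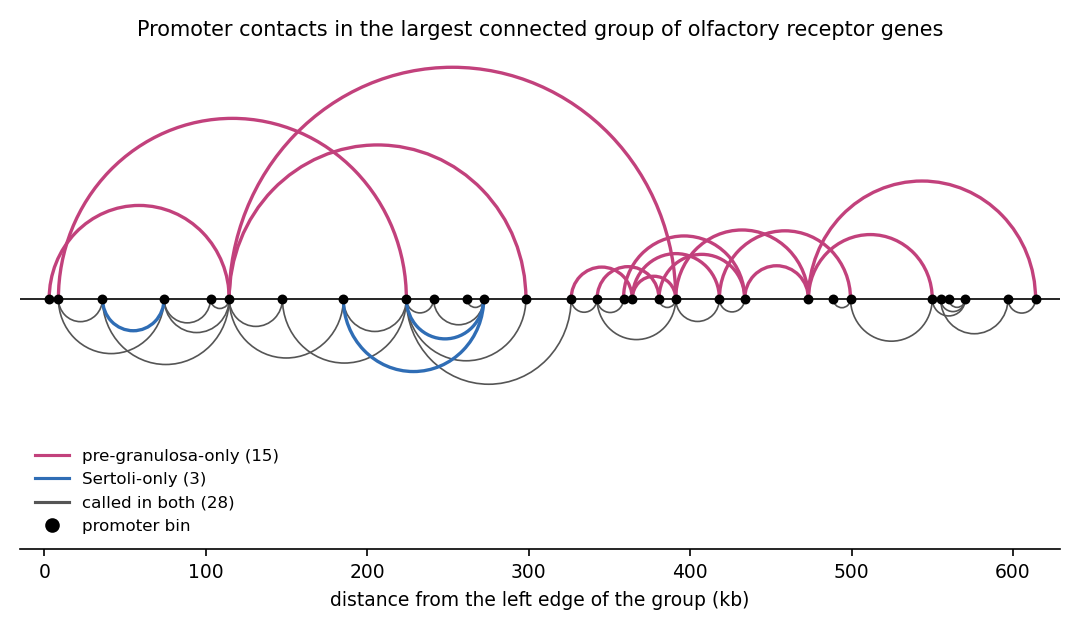
Promoter contacts over the interval of the largest connected group, in kb from its left edge, with pre-granulosa-only pairs as arcs above the line and Sertoli-only pairs and pairs called in both as arcs below; the height of an arc follows its length. Of the 15 pre-granulosa-only arcs, 11 lie wholly beyond 300 kb, and the 3 Sertoli-only arcs lie left of 300 kb, while the 28 shared ones lie on both sides.

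All 5 promoter bins with the most member contacts, 4 each, were olfactory receptor bins. Olfr1269 met Olfr1264 at 95.7 kb (11.7 against 1.51, and 6.52 against 0.394), Olfr140 at 58.7 kb (9.16 against 1.97, and 5.85 against 1.92), Olfr1272 at 164 kb (8.25 against 1.13, and 8.55 against 1.37) and Olfr1265 at 84.8 kb (6.67 against 0.818, and 5.57 against 1.06). All 4 of its contacts met the limits from both ends, and as a bait it had 9 pre-granulosa and 6 Sertoli calls. Olfr1018 met 4 receptors between 45.8 and 186 kb with pre-granulosa scores of up to 8.72. Olfr912 and Olfr963 had 2 and 5 pre-granulosa calls as baits and 0 Sertoli calls each. Yet Olfr963 with Olfr149 scored 9.19 against 1.51 from Olfr963 and 18.4 against 7.07 from Olfr149, a Sertoli call in the opposite direction. Over all members 1712 bins were in 1 pair, 180 in 2, 30 in 3 and 5 in 4.

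Bins of other genes with 3 member contacts included Fbxo28, an F-box gene on chromosome 1, which met Vmn1r1 at 183 kb (9.92 against 1.23), Degs1 at 58.1 kb (5.40 against 1.79) and Enah at 322 kb (5.29 against 0.205), each listed from Fbxo28 only. A Ccdc73 start met Qser1 at 172 kb (6.62 against 1.96, and 6.67 against 0.866), Prrg4 at 139.6 kb (6.03 against 1.76) and another start of Ccdc73 (7.33 against 1.47). The last 2 had Sertoli scores of 4.36 and 5.03 from the opposite end. Spns1 met Sbk1 from a pair of bins and Atxn2l at 126 kb (5.41 against 1.33). These bins were named after their values were seen.

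Olfactory receptors aside, gene families took a similar share of members and of all listed pairs. Pairs of 1 other family, the other chemosensory receptors included, were 51 of the members (4.67%), against 4.87% of all listed pairs. Of 173 zinc finger (Zfp) pairs 7 (4.05%, 1.97 to 8.12) were pre-granulosa-only and 24 (13.9%) Sertoli-only, and of 41 β-defensin pairs 0 and 7 (17.1%), beside 5.96% and 14.2% of all listed pairs. Kallikreins had 2 of 34 (7 Sertoli-only), late cornified envelope genes 2 of 14 (0 Sertoli-only) and type I interferons 2 of 13 (4 Sertoli-only), too few to compare. Besides Ifi207 and Ifi211 and the vomeronasal pairs above, the highest family pairs were Emc4 with Emc7, of the endoplasmic reticulum membrane complex, at 91.5 kb (7.67 against 0.708, and 8.81 against 1.29) and Fcgr2b with Fcgr3, receptors for immunoglobulin G, at 85.1 kb (7.63 against 1.79, and 8.58 against 1.93). Hoxd8 and Hoxd3 were joined at 11.1 kb, from Hoxd3 only (6.78 against 0.634).

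Promoters of the same gene were at both ends of 76 members (6.97%), against 7.09% of Sertoli-only pairs, 16.2% of pairs called in both and 11.8% of all listed pairs. The interleukin receptor gene Il1r2 had the highest score of these in a direction that met the limits, at 10.8 kb (10.5 against 1.46, and 7.59 against 1.15). Cep170, a centrosomal gene, at 55.4 kb (10.2 against 1.35, and 7.33 against 0.689) and Dab2ip, a Ras GTPase-activating gene, at 73.2 kb (9.13 against 1.90, and 9.24 against 1.79) also met the limits from both ends. Epb41, a membrane skeleton gene, scored 10.2 against 1.79 from one start and 21.8 against 7.39 from the other, so it was called in Sertoli cells in that direction.

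Few genes of gonad development had a promoter bin in a listed promoter pair. On a longer list of pre-granulosa genes than the markers above, 7 had one, of which 3 were in a member pair and 1 in a Sertoli-only pair. Lef1, a nuclear effector of WNT signalling, met Rpl34 384 kb away on chromosome 3 with 6.70 in pre-granulosa and 0.869 in Sertoli cells, listed from Rpl34 only. Msx1, a homeobox gene, met Stx18 253 kb away (8.70 against 2.62 from Msx1, and 6.51 against 0.466 from Stx18). Cyp19a1, which encodes aromatase, met Gldn 92.9 kb away with 5.52 against 1.87, but 9.58 against 5.67 from Gldn, a call in both cell types. Rspo1, Ctnnb1, Foxp1 and Cdkn1b had promoter bins and no member pair.

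Of 8 genes with such a bin on a longer Sertoli list, 1 was in a member pair, Defb19, a β-defensin of the fetal testis, with H13 at 89.6 kb (6.27 against 0.976), and 3 were in Sertoli-only pairs. Of 5 genes of the early gonad, 2 were in member pairs. Insr, the insulin receptor gene, met Arhgef18 at 147 kb (5.25 against 1.12). Numa1, a spindle pole gene, had 3 contacts with pre-granulosa scores of 5.31, 7.204 and 7.97 against Sertoli scores of 1.34, 0.932 and 1.66. Wt1, Nr5a1 and Lhx9, transcription factors of the bipotential gonad, had promoter bins and no member pair. With lists this short, intervals for the share of genes in member pairs ran from 15.8% to 74.95% for the pre-granulosa list and from 2.24% to 47.1% for the Sertoli list, and both include the 23.3% of all genes.

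The shares of genes in member pairs were 21.4% for WNT, 5.26% for BMP and TGF-β, 22.2% for retinoid and 8.33% for Notch and hedgehog genes, and each interval included the 23.3% of all genes. Of 14 WNT genes 3 were in member pairs and 7 in Sertoli-only pairs: Lef1, Tcf7l1, a repressor at WNT targets, with Retsat at 182 kb (5.09 against 0.527, and 9.48 against 1.55), and Dkkl1, which enters by its prefix and is a sperm acrosome gene, with Rcn3 at 123 kb (7.35 against 1.90, and 5.09 against 1.31). Of 19 BMP and TGF-β genes 1 was in a member pair, Tgfbr3l with Lrrc8e at 16.1 kb (7.35 against 1.71 from Tgfbr3l, and 5.38 against 2.56), and 7 were in Sertoli-only pairs. Of 9 retinoid genes 2 were in member pairs and 0 in Sertoli-only pairs. These were Rxra, the retinoid X receptor, with Wdr5 at 194 kb (5.09 against 0.378) and Rdh13, a retinol dehydrogenase, with Tnni3 at 80.7 kb (5.01 against 1.70), each from 1 end. Of 12 Notch and hedgehog genes 1 was in a member pair, Hes3 with Icmt at 10.7 kb (6.54 against 1.91), which was called in Sertoli cells (7.21) from Icmt.

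Among chromatin genes, 9 of 47 (19.1%) were in member pairs and 22 (46.8%) in Sertoli-only pairs, near the 23.3% and 41.1% of all genes. Kmt5a, a histone methyltransferase gene, met Tmed2 at 96.1 kb from both ends (8.18 against 0.977, and 7.26 against 0.445). From Kmt5a, the touching bin with another Tmed2 start scored 1.38 in pre-granulosa and 6.91 in Sertoli cells. Kmt5c, a related histone methyltransferase gene, met Ppp6r1 at 80.4 kb (5.06 against 1.63, and 5.13 against 1.20). Rad21l, a meiotic cohesin gene, met Snph at 38.1 kb with 5.02 against 1.43, but from Snph the Sertoli score of 6.04 was above the pre-granulosa score of 5.57. Of 58 cell cycle genes 13 (22.4%) were in member pairs and 18 (31.0%) in Sertoli-only pairs. Cdca3, a trigger of mitotic entry, met Lrrc23 at 52.9 kb from both ends (8.55 against 1.09, and 6.34 against 0.587), and Mcm7, a subunit of the replicative helicase, met Zcwpw1 at 384 kb from 1 end (6.67 against 0.0163).

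Ribosomal protein genes had 11 of 38 in member pairs (28.9%, 17.0 to 44.8) and 10 in Sertoli-only pairs. Rpl28 met Zfp628 at 124 kb (6.04 against 0.340, and 11.9 against 1.71). Solute carriers had 30 of 132 in member pairs, transmembrane (Tmem) genes 18 of 111, zinc finger genes 45 of 179, unnamed Gm and Rik genes 67 of 325, Hoxa and Hoxd genes 4 of 16, mitochondrial ribosome genes 4 of 32, respiratory chain genes 4 of 28, cytochrome P450 genes 2 of 22 and Ugt genes 0 of 16. Of the lists with 20 or more genes, olfactory receptors alone had an interval wholly above 23.3%. Lists matched by the start of a symbol take in unrelated genes such as Rps6ka1, a kinase, and Ccn1, a matrix protein.

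The members' promoters were compared with those of all listed pairs in base composition and motif matches. A RefSeq promoter lay inside 6375 of the 10621 promoter bins (60.02%). The median GC content of the members' 1484 promoters was 56.3%, against 57.0% for all listed promoters. It was 34.3% for the members' olfactory receptor promoters and 35.0% for all listed ones. Motifs were searched on both strands, none of the matches being a proven site. The GATA motif AGATAA was in 11.6% of the members' promoters and 9.79% of all listed promoters. Over all RefSeq promoters searched on chromosomes 1 to 9, contacts or not, it was in 11.3%. It was in 31.3% (66 of 211) of the members' olfactory receptor promoters and in 29.2% (149 of 510) of all listed ones. Outside the family it was in 8.26% of the members', 8.33% of all listed and 7.79% of Sertoli-only promoters, with overlapping intervals. With the family kept, the Sertoli-only share was 8.70% (7.70 to 9.82), an interval apart from that of the members (10.1 to 13.3). The core of the CTCF motif was in 0.674% of members' promoters and 0.738% of all listed ones, in 0 of the 211 members' olfactory ones and in 0 of all 510 listed olfactory ones. By the Wilson interval these counts of 0 allow shares of up to 1.79% and 0.748%. The forkhead motif GTAAACA was in 3.30% of members' promoters, against 2.88% of all listed and 2.06% of Sertoli-only promoters. Outside the olfactory receptors it was in 2.94% of members' and 2.70% of all listed promoters. The TCF/LEF motif CTTTGAT was in 2.96% against 3.23% of all listed and 3.39% of Sertoli-only promoters, and the NR5A1 motif CAAGGTCA in 1.21% against 1.15% and 1.40%. For these 3 motifs the intervals of the members overlapped those of both other sets. Over all RefSeq promoters searched on chromosomes 1 to 9 the shares were 0.655% for CTCF, 3.84% for forkhead, 4.00% for TCF/LEF and 1.56% for NR5A1. Where each end had promoters of 1 strand, 57.5% of members (257 of 447) had both genes on the same strand, against 55.6% of all listed pairs, and for olfactory receptors 66.3% against 62.9%.

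Contacts next to the members were counted as well. A bin touching the other end was called in pre-granulosa cells from the same bait for 135 members (12.4%, 10.6 to 14.5), whereas 22.0% of Sertoli-only pairs had a touching Sertoli call, and pairs called in both had a touching call in 36.8% by pre-granulosa and 44.1% by Sertoli scores. On the pre-granulosa scale alone, a touching call stood beside 10.5% of the member directions and 9.57% of the Sertoli-only ones. The table with the original baits, single restriction fragments in place of bins, listed 50 members (4.58%), against 222 Sertoli-only pairs (8.55%) and 1719 pairs called in both (22.0%). Of those 50, 48 were called in pre-granulosa cells there, 3 in Sertoli cells, and 30 met the score limits. They include Hk2 with Sema4f (5.59 against 0.581), Ifi207 with Ifi211 (5.47 against 0.603), Olfr365 with Olfr366 (6.45 against 0.602) and Olfr61 with Olfr45 (5.48 against 0.887). Both tables were made from the same libraries, so agreement between them is not a replicate.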

How the data were processed

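Per the labels, the deposited tables give 1 CHiCAGO score per contact and cell type, made by the authors from all libraries of that cell type; how libraries were combined, and the versions and filters used, are not given in the sources used here. Coordinates are mm10, per the submitters' processing notes. The tables list contacts with a score of at least 5 in 1 or both cell types, and the listed cis contacts all lie beyond 10 kb, as a check of the values showed. A score is no read count; it was compared with the limits and within the same row, and across rows it was used to rank pairs for naming.

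From the table of extended baits (median bin 5324 bp), cis rows of chromosomes 1 to 9 with a named other end were kept, directions were joined by exact bin coordinates, and pairs were counted once. A family is a pair of symbols with the same 3 or more letters before the first digit; olfactory receptors are symbols starting Olfr, and their clusters were split at gaps of 1 Mb. For a match in the original-bait table, the bait there had to lie inside the bin at 1 end. The other end there had to cover at least 50% of the bin at the opposite end. The count of calls near both ends, within 6, 12 and 24 kb, was added after the data had been seen. Named pairs are the 10 with the highest pre-granulosa score, the 6 highest in mean among pairs meeting the limits from both ends, the 5 farthest, those at each limit, the 5 bins in most pairs, the 5 largest groups, the 5 highest family pairs and every pair with a gene of the gonad and signalling lists; others were named after their values were seen. Some pairs that these rules name are not reported here. The members and lists were chosen with earlier results of these data known. With 1 column per cell type no test was possible and none was run. The joins were tested on simulated data. Python 3.11.15, pandas 2.3.3, numpy 2.4.6, scipy 1.17.1, networkx 3.6.1 and matplotlib 3.10.9 were used. Promoter sequences are from RefSeq (GRCm38.p6).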

Additional observations from a re-analysis of the deposited data

How the results depend on the processing

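The counts depend on the limits by construction. Raising the call threshold to 7 left 278 pre-granulosa-only pairs, 944 Sertoli-only pairs and 531 promoter bins, with 75.2% listed from both ends, 15.8% meeting the limits from both, 16.2% with a touching call and 21.6% within 1 family. At 10 there were 39, 220 and 78, with 92.3%, 2.56%, 15.4% and 20.5%, and a median distance of 119 kb. With a limit of 1 on the other cell type's score there were 361 pairs, 990 Sertoli-only pairs and 685 bins, 13.9% met the limits from both ends and the median was 95.5 kb. With a limit of 3 these were 2126, 4279, 3387, 22.0% and 64.5 kb. Keeping scores of 0 gave a median of 86.0 kb. Requiring every listed direction to meet the limits gave 28.2% both listed and meeting from both ends, 9.71% with a touching call and 84.9 kb. From 20 kb on the median was 84.1 kb. From 50 kb on there were 702 pairs and 1280 bins, with 46.0%, 9.54% with a touching call, 20.7% within 1 family and 111 kb. The original baits gave 5 pairs, 10 Sertoli-only pairs and 10 bins, since this count needs a promoter name at both ends and few rows of that table have one. The 30 members that met the limits there were matched by position, whatever name the other end carried. Equal numbers of calls, with Sertoli calls from a score of 6.01, left 1510 Sertoli-only pairs, still more than the 1091. The share of olfactory receptor pairs, checked after it had been seen, ran from 16.5% (50 kb or more) to 22.7% among members and from 1.82% to 5.64% among Sertoli-only pairs with the extended baits, and 0 of 10 with the original baits.

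No paired analysis was possible because each cell type has 1 score column for all of its libraries, and for the same reason leaving out a library was not possible. Depth is unknown, and a low Sertoli score has no read number beside it.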
